A study of Homo sapiens with 8 samples.

Results

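The data describe the baseline transcriptome of PANC-1 cells that received only the vehicle dimethyl sulfoxide (DMSO) for 24 h. PANC-1 is a human cell line established from a carcinoma of the pancreatic duct. Transcripts were measured by mRNA sequencing in 4 DMSO cultures, as TPM, a gene's part of all transcripts after correction for its length, scaled to a total of 1000000 in each library. A gene was called expressed where all 4 libraries had a TPM of 1 or more, and 11279 of the 20263 genes of the table met this rule, a share of 55.7%. A further 4702 genes, a share of 23.2%, were listed at 0 in all 4 libraries, and 4282 genes lay in between.

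The study also treated PANC-1 cells with EB, the plant compound eupalinolide B, and its series holds 8 libraries, of which the 4 with DMSO were used here. The labels give the cell line, DMSO and 4 replicate numbers, and nothing shows which were grown or prepared together, so the spread below may be in part technical. The DMSO columns of the table are headed C1, C2, C3 and C4, and values are given in this order throughout. One line at one time point, always with DMSO, limits what the values stand for. No untreated culture and no normal pancreas was analyzed here.

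Duct cells line the channels that carry pancreatic juice, and they are held together by keratin filaments and tight junctions. Carcinomas of these cells often lose the tumor suppressors CDKN2A or SMAD4. In culture, such lines range from epithelial cells with E-cadherin to cells that also make vimentin, the intermediate filament protein of mesenchymal cells.

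The 4 cell type markers were expressed in all libraries. KRT8, the type II keratin of simple epithelia, was at 877, 808, 821 and 514 TPM (755 ± 164 (SD, n = 4)). Its partner KRT18 was at 413, 417, 425 and 342 TPM (399 ± 38.5), and the duct keratin KRT19 at 163, 179, 176 and 135 TPM (163 ± 19.9). VIM, which encodes vimentin, was at 5882, 6414, 6135 and 6215 TPM (6162 ± 220.0). On the deposited scale the keratins were lowest in C4, whereas VIM in C4 lay within the range of the other 3 libraries. Rescaled to a common sum over nuclear genes, KRT8 was still lowest in C4, at 1057, 1025, 1039 and 842, but KRT18, at 498, 529, 538 and 561, and VIM, at 7088, 8131, 7768 and 10189, were highest there. KRT19 was then lowest in C1, at 196, 227, 223 and 222. VIM ranked 15 among all genes by median TPM, KRT8 131, KRT18 251 and KRT19 741, so the mesenchymal filament exceeded each keratin in every library.

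C4 differed from the other 3 libraries in its makeup as a whole. The 13 mitochondrially encoded genes took 17.01%, 21.1%, 21.0% and 39.0% of the TPM. Since the total is fixed, all other genes then share less. The median expressed gene had 21.3, 21.3, 21.5 and 15.4 TPM, and 11894, 11864, 11866 and 11445 genes reached a TPM of 1. A TPM of at least 1 in C1, C2 and C3 but not in C4 was found for 303 genes, whereas 34, 33 and 36 genes fell short in C1, C2 or C3 alone. TPM and the order of libraries are therefore on the deposited scale unless named as rescaled, and a gene that is lowest in C4 on that scale need not be so over nuclear genes.

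**Figure D1:**
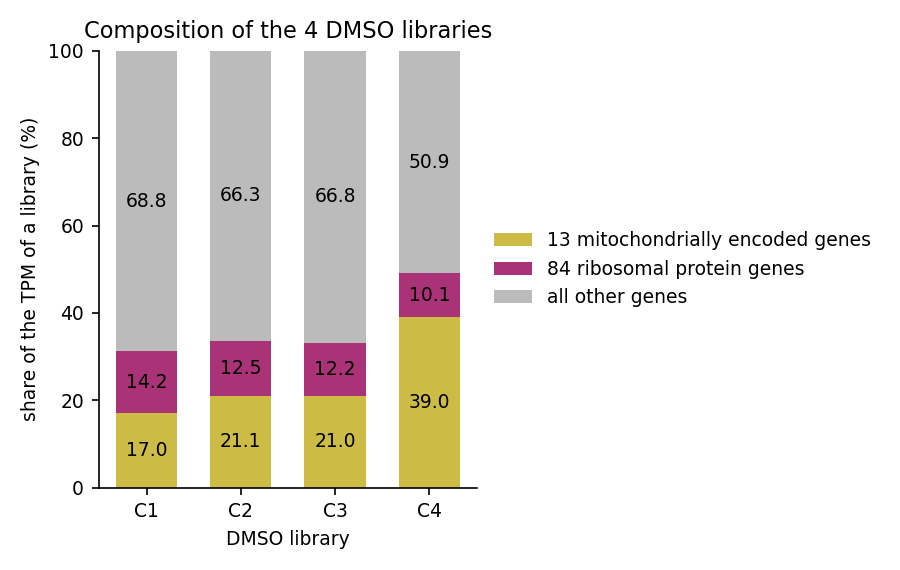
Share of the summed TPM (%) taken in each DMSO library by the 13 mitochondrially encoded genes, the 84 cytosolic ribosomal protein genes and all other genes. The mitochondrial share is 39.0% in C4 and at most 21.1% in the other 3 libraries.

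The transcriptome was dominated by few genes. The 10 most abundant took 17.4%, 20.7%, 20.5% and 36.7% of the TPM, the 100 most abundant 41.6%, 43.6%, 43.5% and 57.1%, and the 1000 most abundant 69.4%, 70.0%, 69.7% and 77.9%. Among nuclear genes alone, the 100 most abundant took 31.5%, 30.3%, 30.1% and 31.4%, with no library apart. By median, 110 genes reached 1000 TPM, 1292 lay between 100 and 1000 TPM, and 3293 expressed genes were under 10 TPM. The 110 comprised the 13 mitochondrially encoded genes, 50 cytosolic ribosomal protein genes and 47 others.

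MT-CO3, a subunit of cytochrome c oxidase, was the most abundant gene at 39852, 48962, 48419 and 82285 TPM, followed by its partner subunits MT-CO2 at 31300.2, 38383, 37274 and 69239.5 TPM and MT-CO1 at 26552, 33252, 32013 and 52289.5 TPM. MT-ND6, the subunit of complex I that is encoded on the other mitochondrial strand, was the lowest of the 13 at 2628, 3232, 3078 and 6785 TPM. All 13 were highest in C4, by 0.78 to 1.35 on the log2(TPM + 1) scale over the mean of the other 3. MT-ATP8 differed most, with 13751, 18363, 18856 and 42772 TPM. It shares 22.2% of its exonic bases with MT-ATP6, and whether the division of reads between them affects its values was not tested.

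The most abundant nuclear genes encode parts of the cytoskeleton, iron storage, glycolysis and translation. TMSB4X, the actin-binding thymosin β4, led with 12082, 10206, 9904 and 8731 TPM. FTL, the ferritin light chain, followed with 11003, 10037, 10055 and 7042 TPM, and the glycolytic enzyme GAPDH with 8100.4, 8617, 8015 and 6353 TPM. Next came the translation factor EEF1A1 (6874, 6584, 8386 and 4759 TPM) and VIM. The other 15 of the leading 20 were TMSB10, ACTB, EEF2, MT2A, YBX1, HSPA8, FTH1 and the ribosomal protein genes RPS2, RPL13A, RPL12, RPL35, RPL27, RPS24, RPS27 and RPL7A, with medians from 3189 TPM for FTH1 to 6058 TPM for RPS2. All 20 but VIM, RPS24 and FTH1 were lowest in C4 as deposited, but rescaled over nuclear genes 6 of the 20 were lowest and 9 highest in C4. FTH1, the ferritin heavy chain, was highest in C4 on both scales, at 3006, 3056, 3323 and 3459 TPM, and 63.2% of its exonic bases overlap another gene of the table on the opposite strand.

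The ribosomal protein genes took 14.2%, 12.5%, 12.2% and 10.1% of the TPM, and 17.1%, 15.9%, 15.5% and 16.5% of the nuclear TPM. Of 84 such genes, 81 were expressed, a share of 96.4% beside 55.7% of all genes, with a median of 1110.0 TPM over the family. Their order between libraries thus changed with the scaling, with C4 lowest over all genes but not over nuclear genes.

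The 100 bases before the transcript start are shown for 3 of the most abundant genes and for 2 pancreatic genes listed at 0, to set their promoters side by side. They are the bases up to the start in RefSeq on GRCh38.p14, read on the coding strand. Capitals mark TATAAA on the coding strand within 50 bases of the start, the letters of a TATA box, and GGGCGG, those of a GC box, which reads CCGCCC when it lies on the other strand. CCAAT, searched on both strands, occurs in none of the stretches. A match of letters is a description and not a binding site. VIM lies on the plus strand at chr10:17228141-17228240, TMSB4X on the plus strand at chrX:12975010-12975109, and MT2A, a metallothionein that binds zinc and copper, on the plus strand at chr16:56608484-56608583. INS, which encodes insulin, lies on the minus strand at chr11:2161210-2161309, and PRSS1, which encodes trypsinogen, on the plus strand at chr7:142749372-142749471.
VIM: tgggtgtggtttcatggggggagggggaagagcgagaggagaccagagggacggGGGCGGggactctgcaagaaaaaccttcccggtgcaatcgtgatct
TMSB4X: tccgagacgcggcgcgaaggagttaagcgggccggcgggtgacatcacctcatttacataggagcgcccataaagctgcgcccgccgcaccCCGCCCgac
MT2A: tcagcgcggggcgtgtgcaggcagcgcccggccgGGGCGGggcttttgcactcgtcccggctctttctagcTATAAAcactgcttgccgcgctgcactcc
INS: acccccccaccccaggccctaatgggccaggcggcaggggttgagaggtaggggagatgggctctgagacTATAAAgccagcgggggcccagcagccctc
PRSS1: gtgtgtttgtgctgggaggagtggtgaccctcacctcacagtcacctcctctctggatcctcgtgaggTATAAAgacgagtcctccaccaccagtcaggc
The first 3 genes were at median levels of 6175, 10055 and 3560 TPM, and each has 1 GGGCGG on either strand. INS and PRSS1 were listed at 0 in all libraries, and each has TATAAA, starting 30 and 32 bases before the start, with no GGGCGG. MT2A has both, with TATAAA starting 29 bases before the start. CpG occurs 5, 14 and 11 times in the stretches of VIM, TMSB4X and MT2A and 2 times in each of INS and PRSS1.

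Over all genes these features were given as shares. Windows of 300 bases, 250 before and 50 after the start, were matched for 15272 genes of the table. TATAAA within 50 bases before the start, on the coding strand, was found in 1.37% of the promoters of expressed genes, 10.0% of those of genes listed at 0 and 3.90% of all matched. GGGCGG on either strand was found in 72.65%, 29.7% and 59.3% of these sets. CCAAT on either strand hardly varied, with 36.9%, 38.2% and 36.6%. Among all 27305 genes with a promoter in the reference, TATAAA was found in 2.92%, GGGCGG in 44.6% and CCAAT in 35.7%. The median GC content of expressed genes, genes at 0 and all matched was 65.7%, 52.0% and 63.0%, and the median ratio of observed to expected CpG 0.85, 0.29 and 0.77. Among the 100 most abundant nuclear genes, of which 80 were matched, TATAAA was found in 6.25% and GGGCGG in 70.0%. Among 67 ribosomal protein genes these shares were 5.97% and 53.7%. A promoter was given for 81.4% of expressed genes but for 67.8% of genes at 0 and 75.4% of all genes. A check over the genes at 0 or the ribosomal protein genes is void for the sets as a whole, since fewer than 80% of their members had one, and the shares describe those matched.

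Duct cell genes were expressed about as often as all genes. Of 14 genes typical of duct cells, 7 were expressed, 4 were listed at 0 and 3 lay in between, beside a share expressed of 55.7% over all genes. Beside the 3 keratins, SOX9, a transcription factor of duct cells, was at 128, 156, 172 and 138 TPM (149 ± 19.3). The membrane-binding annexin ANXA4 was at 46.2, 48.8, 43.97 and 48.2 TPM, with no library apart as deposited. Rescaled over nuclear genes, ANXA4 was highest in C4, at 55.6, 61.8, 55.7 and 78.9. The transmembrane mucin MUC1 was at 20.2, 19.96, 18.5 and 15.3 TPM. CLDN4, a tight junction protein, gave 51.0, 106, 1.72 and 49.3 TPM, so that C3 fell far below the other libraries. CFTR, the chloride channel of duct cells, the bicarbonate transporter SLC4A4 and the secreted SPP1 were among the 4 listed at 0 throughout. EPCAM, the epithelial adhesion molecule, was at 0.186, 0.251, 0.218 and 0.331 TPM, and the duct keratin KRT7 at 0.297, 0, 0.0923 and 0 TPM, both under the threshold. CA2, a carbonic anhydrase, was above 0 only in C3, at 0.0823 TPM.

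Genes of the other pancreatic cell types were mostly at 0, with shares of 65% for acinar and 60% for islet genes beside 23.2% of all genes. Of 20 acinar genes, 13 were listed at 0, among them the digestive enzyme genes PRSS1, PRSS2, CPA1, PNLIP and CELA3A and the acinar transcription factor PTF1A. The only one expressed was CEL, which encodes a bile salt-stimulated lipase, at 4.09, 4.51, 4.55 and 3.74 TPM. Summed over the list, acinar genes reached 4.29, 5.23, 5.40 and 3.83 TPM. Of 20 islet genes, 12 were listed at 0, among them the hormone genes INS, GCG, SST, PPY and IAPP and the secretory granule gene CHGA. The 5 expressed were led by PAX6, a transcription factor of endocrine and eye development, at 14.7, 21.4, 18.2 and 17.96 TPM (18.1 ± 2.73), and SYP, which encodes a synaptic vesicle protein, at 17.6, 16.5, 15.5 and 9.66 TPM. MAFA, an activator of the insulin gene, was at 4.40, 4.70, 4.61 and 5.08 TPM, while INS was at 0.

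Transcription factors that specify endoderm and pancreas were expressed less often than all genes, with a share of 26.7% beside 55.7%. Of 15, 4 were expressed and 2, HNF4A and PROX1, were listed at 0. HHEX was at 18.8, 22.6, 22.7 and 22.03 TPM, MNX1 at 25.98, 19.5, 23.5 and 12.7 TPM and GATA4 at 15.6, 18.6, 20.4 and 14.6 TPM. The pioneer factor FOXA1 was just above the threshold at 1.09, 1.008, 1.13 and 1.18 TPM. PDX1, the master regulator of the pancreas, was at 0.609, 0.569, 0.642 and 0.379 TPM and GATA6 at 0.0166, 0.0230, 0 and 0 TPM, so neither was expressed by the rule. GATA4 and GATA6, which are close relatives, thus differed in every library.

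**Figure D2:**
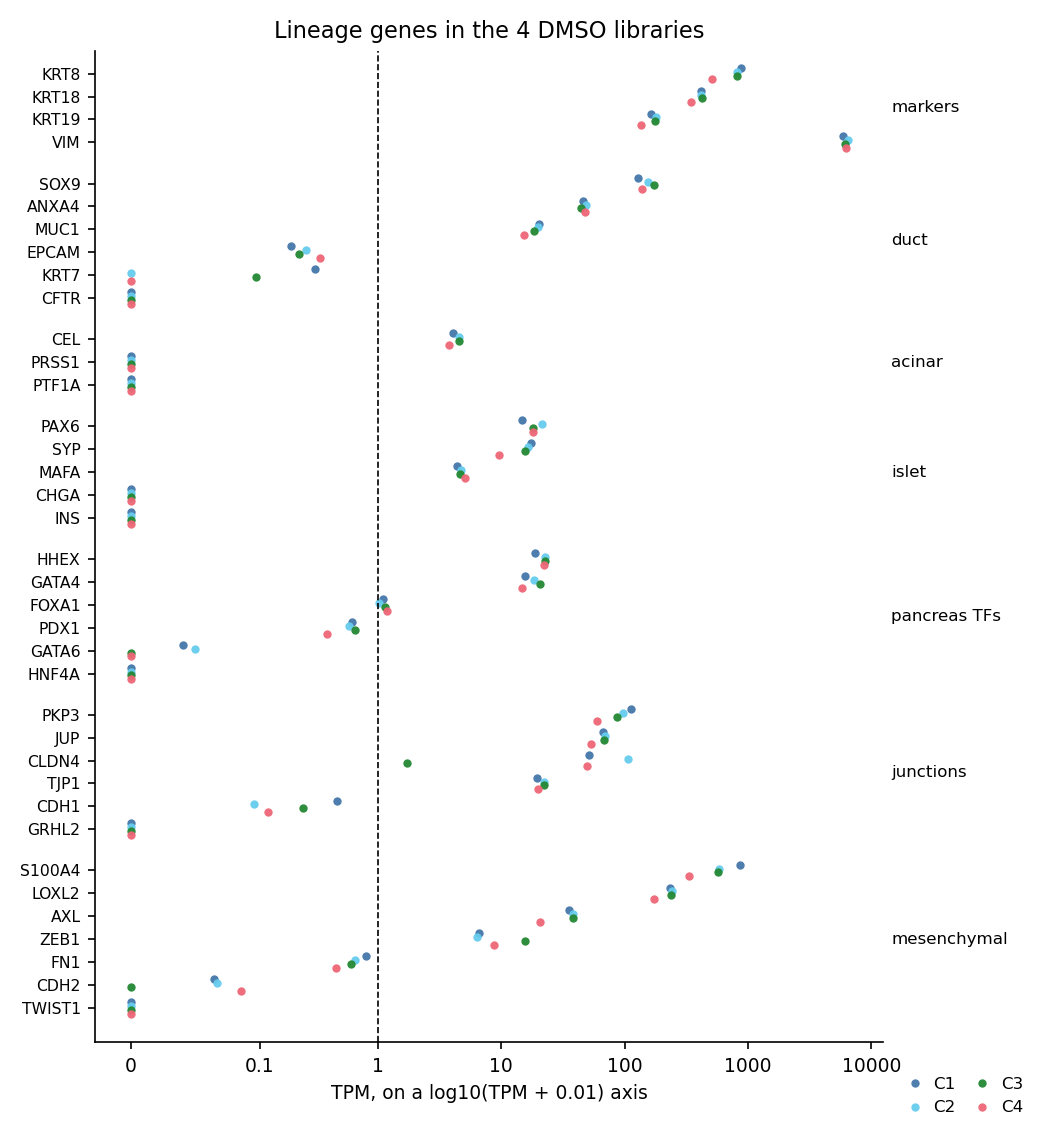
TPM of lineage genes in the 4 DMSO libraries (points, colored by library and offset vertically) on a log10(TPM + 0.01) axis, with a dashed line at a TPM of 1. The markers lie to the right of the line in every library, whereas INS, PRSS1, CFTR and TWIST1 sit at 0.

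Pancreatic tumors are often divided into a classical type, with genes of gut and mucus-forming epithelium, and a basal-like type, with genes of squamous epithelium. Of 20 classical genes, 1 was expressed, AGR2, which encodes a protein disulfide isomerase, at 5.58, 3.43, 3.40 and 4.10 TPM. Of the others, 11 were listed at 0, among them TFF1, TFF2, TFF3, LYZ, CEACAM5, REG4 and TSPAN8. Of 25 basal-like genes, 7 were expressed and 14 were listed at 0. AREG, a ligand of the EGF receptor, was at 117, 122, 126 and 129 TPM, highest in C4 on both scales. TP63, the transcription factor of squamous epithelium, was at 99.5, 111, 129 and 77.5 TPM (104 ± 21.7), and KRT15 at 60.4, 71.3, 54.5 and 34.5 TPM. The squamous keratin genes KRT5, KRT6A, KRT6C and KRT17 were at 0 in all libraries, and KRT14 was above 0 only in C2, at 0.0352 TPM. Both lists thus had a smaller share expressed than the 55.7% of all genes.

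Cell junction genes were split. Of 29 epithelial junction genes and their regulators, 12 were expressed and 2, the regulators GRHL2 and OVOL2, were listed at 0. The share expressed, 41.4%, was under the 55.7% of all genes. The desmosomal PKP3 was at 112, 97.2, 86.4 and 59.3 TPM (88.8 ± 22.4), and plakoglobin, encoded by JUP, at 67.2, 69.9, 67.9 and 53.2 TPM. EHF, an epithelial transcription factor, was at 32.5, 33.1, 31.9 and 16.2 TPM and the tight junction protein TJP1 at 19.6, 22.3, 22.3 and 20.02 TPM. CDH1, which encodes E-cadherin, was at 0.458, 0.0886, 0.235 and 0.119 TPM, and the splicing regulator ESRP1 was at 0.0213, 0.0451, 0 and 0 TPM. Of 23 cadherins with a name in CDH, only CDH12 (15.2, 14.6, 13.4 and 7.24 TPM) and CDH24 (12.6, 11.9, 13.01 and 7.98 TPM) were expressed, a share of 8.70%. The CDH1 values fell under the threshold in all 4 libraries.

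Mesenchymal genes were split as well. Of 22, 9 were expressed and 3, the transcription factors TWIST1 and PRRX1 and the matrix protein SPARC, were listed at 0. The share expressed, 40.9%, was also under the 55.7% of all genes. After VIM came S100A4, a calcium-binding protein, at 857, 579, 574 and 334 TPM (586 ± 214) and the lysyl oxidase LOXL2 at 232, 243, 237 and 173 TPM. The receptor AXL was at 35.5, 38.1, 37.9 and 20.8 TPM, lowest in C4 on both scales. ZEB1, a repressor of epithelial genes, was at 6.54, 6.33, 15.6 and 8.66 TPM, with C3 above the other 3 libraries. ZEB2 was at 0.0251, 0, 0.0179 and 0.0181 TPM, and the matrix protein FN1 at 0.798, 0.646, 0.594 and 0.451 TPM. CDH2, which encodes N-cadherin, was at 0.0370, 0.0400, 0 and 0.0680 TPM, so neither E-cadherin nor N-cadherin was expressed by the rule.

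Genes of cancer signaling were described next. The small GTPase NRAS was at 26.3, 29.8, 29.6 and 24.8 TPM and the kinase BRAF at 18.6, 19.5, 18.4 and 16.9988 TPM. HRAS was higher than NRAS in every library, at 118, 104, 110.3 and 63.97 TPM. SMAD4, which relays TGF-β signals, was at 12.1, 11.98, 11.5 and 8.04 TPM (10.9 ± 1.93), lowest in C4 on both scales. MYC was at 27.4, 34.7, 28.1 and 28.5 TPM (29.7 ± 3.36), with C2 highest as deposited and C4 highest after rescaling, at 33.02, 43.9, 35.6 and 46.7. TPM give the amount of transcript and not its sequence, so nothing is said of alleles.

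Of 28 oncogenes, 25 were expressed, a share of 89.3% beside 55.7% of all genes, with a median of 38.5 TPM beside 3.96 TPM over all genes. GNAS, the stimulatory G protein subunit, led with 662, 808, 824 and 768 TPM. AKT1 was at 145, 132, 144 and 73.9 TPM, AKT2 at 132, 134, 103 and 67.1 TPM and ERBB2 at 108, 109, 102 and 54.7 TPM. CDK4 was at 99.6, 93.1, 102 and 72.2 TPM, whereas its relative CDK6 was at 0.416, 0.255, 0.253 and 0.213 TPM. MYCN was listed at 0 and MYCL was at 0.836, 1.56, 1.19 and 0.930 TPM. MDM2, a ubiquitin ligase, was at 2.07, 2.43, 7.41 and 2.12 TPM, with C3 above the other libraries.

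Of 30 tumor suppressors, 24 were expressed, 3 lay in between and 3 were listed at 0. The share expressed was 80% beside 55.7% of all genes. SMARCA4, a chromatin remodeler, was at 109.8, 115, 118 and 73.97 TPM and the kinase STK11 at 87.4, 77.3, 76.8 and 45.6 TPM. RB1 was at 15.1, 12.6, 11.7 and 10.98 TPM and CDKN1A, an inhibitor of cyclin-dependent kinases, at 17.6, 13.5, 15.4 and 8.14 TPM. APC differed between libraries, with 1.51, 4.80, 10.2 and 5.47 TPM. Of the TGF-β receptors, TGFBR1 was at 8.21, 3.71, 5.88 and 4.34 TPM and TGFBR2 at 0.0521, 0.111, 0.239 and 0.204 TPM. KDM6A, a histone demethylase, was at 0.101, 0.0854, 0.0866 and 0.109 TPM, and RNF43, which removes Wnt receptors, at 0.0572, 0.121, 0.0462 and 0.0934 TPM. TGFBR2, KDM6A and RNF43 were above 0 in every library, with a highest value of 0.239 TPM for TGFBR2 in C3.

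**Figure D3:**
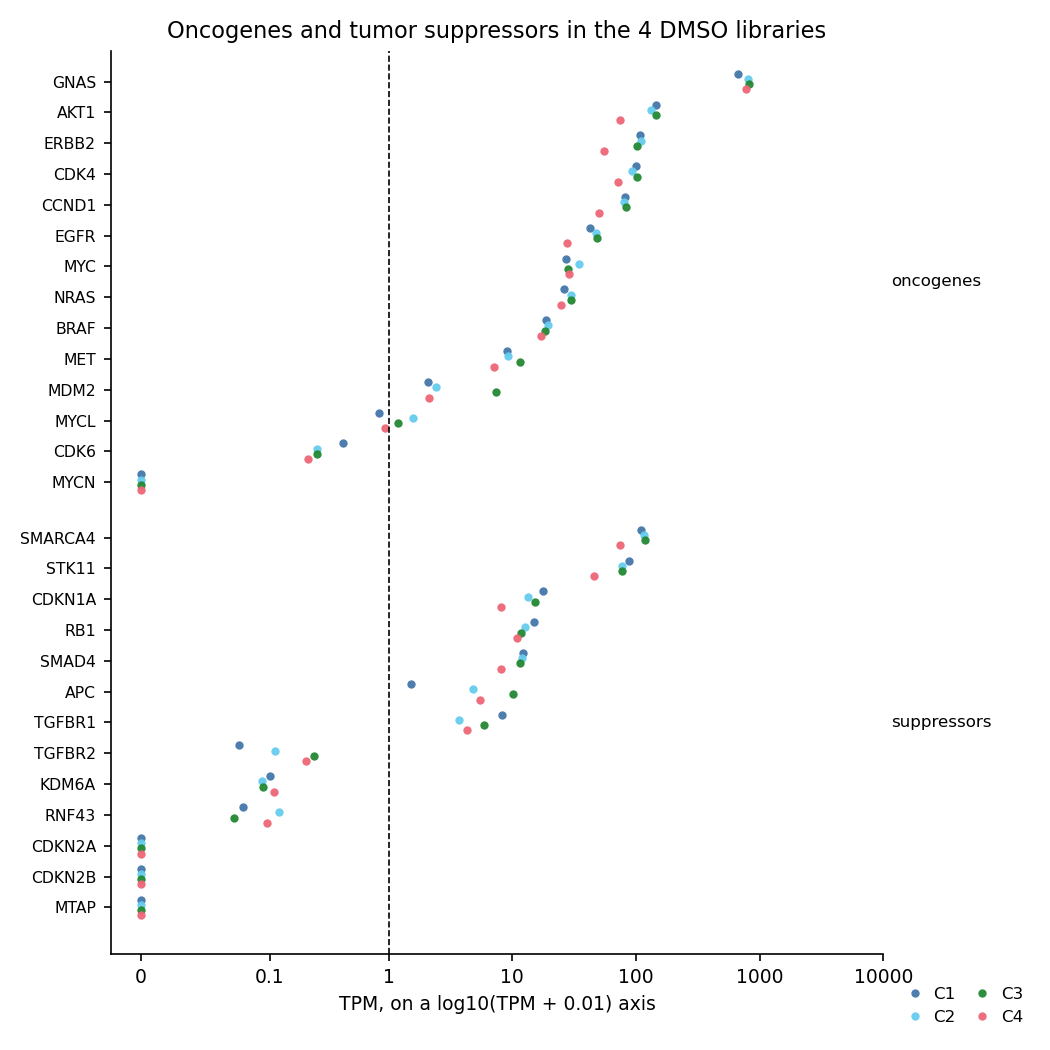
TPM of oncogenes and tumor suppressors in the 4 DMSO libraries (points, colored by library and offset vertically) on a log10(TPM + 0.01) axis, with a dashed line at a TPM of 1. CDKN2A, CDKN2B, MTAP and MYCN sit at 0 in every library and GNAS has the highest values.

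The 3 suppressors at 0 were CDKN2A, CDKN2B and MTAP, which are neighbors on chromosome 9. CDKN2A and CDKN2B encode inhibitors of CDK4 and CDK6, and MTAP an enzyme of methionine salvage that most tissues make. They stood in a run of 28 neighboring protein-coding genes that were all under 0.5 TPM in every library. The run reached from SLC24A2 to TUSC1, on chromosome 9 from 19507452 to 25678444 of hg38 by GENCODE, a length of 6.17 Mb. It comprised 16 interferon genes, all at 0, and 12 others, of which 8 were at 0. Above 0 were FOCAD, MLLT3, KLHL9 and TUSC1, with a highest value of 0.211 TPM for TUSC1 in C2.

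Genes on both sides of the run were detected. The ribosomal protein gene RPS6 before it was at 2292, 1993, 2131 and 2213 TPM and DENND4C at 6.55, 7.94, 8.99 and 4.84 TPM, while the gene next to the run, ACER2, was at 0.536, 0.766, 1.17 and 0.552 TPM. CAAP1 after the run was at 7.53, 8.17, 13.5 and 9.36 TPM and PLAA, an activator of phospholipase A2, at 14.6, 14.8, 15.7 and 9.94 TPM. Among 3036 such runs on all chromosomes but Y, this one ranked 11 by number of genes. The 10 with more genes comprised families such as olfactory receptors on chromosome 11, with 68 genes, epidermal genes on chromosome 1, with 49, and keratins on chromosome 17, with 45. Of these 10, only the run with 68 genes was longer in bases, at 9.02 Mb. Longer ones also occurred among runs with fewer genes, such as 14.6 Mb with 15 genes and 6.86 Mb with 20 genes, both on chromosome X. DNA was not measured, so whether the DNA of the run is present was not tested.

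The shares of growth factors and receptors expressed were near the 55.7% of all genes. Of 18 growth factors, 12 were expressed, led by AREG, VEGFB at 93.1, 91.6, 88.1 and 60.2 TPM and EREG, another EGF receptor ligand, at 65.3, 63.4, 74.3 and 56.1 TPM. EGF was above 0 only in C2, at 0.0177 TPM, and TGFA and IGF1 were listed at 0. Of 31 receptor tyrosine kinases, 19 were expressed, led by the ephrin receptors EPHB4 at 137, 124, 129 and 70.8 TPM and EPHA2 at 104, 100.2, 114 and 52.9 TPM, with ERBB2 between them by median. EGFR was at 42.3, 47.8, 48.1 and 27.6 TPM (41.5 ± 9.60) and the hepatocyte growth factor receptor MET at 9.12, 9.31, 11.4 and 7.13 TPM, whereas its ligand HGF was at 0.189, 0, 0.144 and 0.0215 TPM. ERBB4 was above 0 only in C1, and KIT and KDR were at 0. EPHB4, EPHA2, ERBB2 and EGFR were lowest in C4 on both scales, whereas MET was lowest in C4 as deposited but in C1 after rescaling, at 10.99, 11.8, 14.5 and 11.7.

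Genes of cell division were expressed almost without exception. Of 27, 26 passed, a share of 96.3% beside 55.7% of all genes, with a median of 85.6 TPM over the list. The replicative helicase subunit MCM7 was at 387, 351, 343 and 224 TPM, the mitotic kinase PLK1 at 191, 217, 225 and 159 TPM and cyclin B1, encoded by CCNB1, at 246, 199, 200.4 and 159 TPM. The proliferation marker MKI67 was at 83.2, 87.9, 104 and 74.01 TPM (87.2 ± 12.5) and the clamp protein PCNA at 158, 166, 163 and 150.5 TPM. CCND2 was the exception, at 0.0565, 0, 0.101 and 0.0344 TPM, whereas CCND1 was at 81.2, 80.1, 82.4 and 50.6 TPM and CCND3 at 29.4, 28.7, 29.7 and 28.99 TPM. CCND1 was lowest in C4 on both scales. CCND3 in C4 lay within the range of the other libraries as deposited and above it after rescaling, at 35.4, 36.3, 37.7 and 47.5. All 25 genes used by every cell were expressed, from TBP at 28.6, 38.6, 30.9 and 30.2 TPM up to GAPDH, so none of these 25 was listed at 0.

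Of 21 glycolysis genes, 20 were expressed, a share of 95.2% beside 55.7% of all genes, with a median of 174 TPM. After GAPDH came ENO1 at 2874, 2670.4, 2528 and 1716 TPM, TPI1 at 2574, 2400.1, 2386 and 1581 TPM and PKM at 1089, 1196, 1200.0 and 823 TPM. LDHA, which forms lactate, was at 752, 597, 468 and 459.8 TPM and its relative LDHB at 3.59, 5.74, 3.83 and 5.72 TPM, so the subunit LDHA prevailed in every library. The glucose transporter SLC2A1 was at 36.1, 31.1, 34.9 and 16.9 TPM, and SLC2A3 at 0, 0.176, 0.109 and 0 TPM was the exception.

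Genes of copper handling and of lipoylation, the attachment of lipoic acid to mitochondrial enzymes, were mostly expressed. Of 27, 23 were expressed, a share of 85.2% beside 55.7% of all genes, with a median of 22.0 TPM. Metallothioneins led, with MT2A at 3509.9, 3722, 3610.5 and 3284 TPM (3532 ± 187), MT1E at 1189, 1059, 1071 and 780.3 TPM and MT1X at 571, 596, 596 and 529 TPM, while MT1G was listed at 0. These genes are near-identical copies, so the way reads were divided among them can affect each value. The copper importer SLC31A1 was at 17.1, 16.3, 18.01 and 13.2 TPM and the chaperone ATOX1 at 163, 161, 158 and 125 TPM. The copper exporter ATP7B was at 4.62, 4.55, 5.91 and 2.78 TPM and ATP7A at 1.45, 1.49, 1.23 and 0.897 TPM, under the threshold in C4. FDX1, a ferredoxin that reduces copper and acts in lipoylation, was at 11.9, 8.83, 9.96 and 6.38 TPM and LIAS, the lipoate synthase, at 10.7, 10.3, 10.2 and 9.86 TPM. DLAT, a lipoylated subunit of pyruvate dehydrogenase, was at 33.96, 31.04, 31.97 and 25.3 TPM, and COX11 ranged widely at 31.2, 27.6, 16.4 and 4.996 TPM.

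Antigen presentation genes were mainly those of class I. Of 20 genes, 12 were expressed, a share of 60% near the 55.7% of all genes. Among them were HLA-B at 175, 153, 130.5 and 97.1 TPM and B2M, the common light chain, at 151, 109, 95.2 and 157 TPM. The class I genes are highly alike and vary between people, which can affect how reads are counted. Of the class II genes, HLA-DRA and HLA-DQA1 were at 0 and HLA-DMA was at 2.60, 2.59, 1.49 and 2.15 TPM, while the class II regulator CIITA was at 0.375, 0.230, 0.217 and 0.160 TPM. CD274, which encodes PD-L1, was at 0.312, 0.195, 0.224 and 0.412 TPM, under the threshold throughout.

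Of 25 cytokines and chemokines, 13 were expressed and 5 were listed at 0. These shares, 52% and 20%, were near the 55.7% and 23.2% of all genes. The neutrophil attractant CXCL1 led with 249, 264, 277 and 206 TPM (249 ± 31.05), and CXCL8 was at 42.3, 34.7, 43.5 and 23.3 TPM. The growth factor of macrophages CSF1 was at 96.4, 98.5, 95.5 and 63.97 TPM and LIF, a cytokine of the IL6 family, at 60.8, 58.7, 59.0044 and 28.7 TPM. IL6 itself was listed at 0, as were IL33, CXCL12, CCL20 and CSF2. Of 45 genes matched as interleukins by name, some of them receptors, 5 were expressed, a share of 11.1%, led by IL4R at 26.5, 27.4, 25.6 and 15.03 TPM.

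Among 20 surface proteins used as targets in tumors, 10 were expressed, a share of 50% near the 55.7% of all genes. CD44, a hyaluronan receptor, led with 858, 740.2, 989 and 975 TPM. L1CAM was at 61.2, 63.8, 67.7 and 37.5 TPM, the neurotensin receptor NTSR1 at 48.01, 52.9, 52.2 and 33.4 TPM and CD276 at 59.3, 53.4, 46.8 and 15.1 TPM. MSLN, which encodes mesothelin, was at 0.0837, 0.105, 0.0526 and 0.133 TPM and MUC16 at 0.00826, 0.00594, 0.00389 and 0.00441 TPM, while CEACAM5, FOLR1 and NECTIN4 were listed at 0.

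Of 21 genes that handle nucleoside drugs such as gemcitabine, 16 were expressed, a share of 76.2% beside 55.7% of all genes. Thymidylate synthase, encoded by TYMS, was at 226, 223, 223 and 178 TPM and the ribonucleotide reductase subunits RRM1 and RRM2 at 106, 99.9, 99.2 and 87.7 TPM and 95.5, 91.2, 94.8 and 74.8 TPM. The nucleoside importer SLC29A1 was at 78.4, 92.6, 92.2 and 67.3 TPM and the activating kinase DCK at 7.22, 7.15, 6.94 and 6.58 TPM (6.98 ± 0.287). CDA, which inactivates the drugs, was at 0.234, 0.670, 0.578 and 0.534 TPM, and the exporter ABCB1 was listed at 0.

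**Figure D4:**
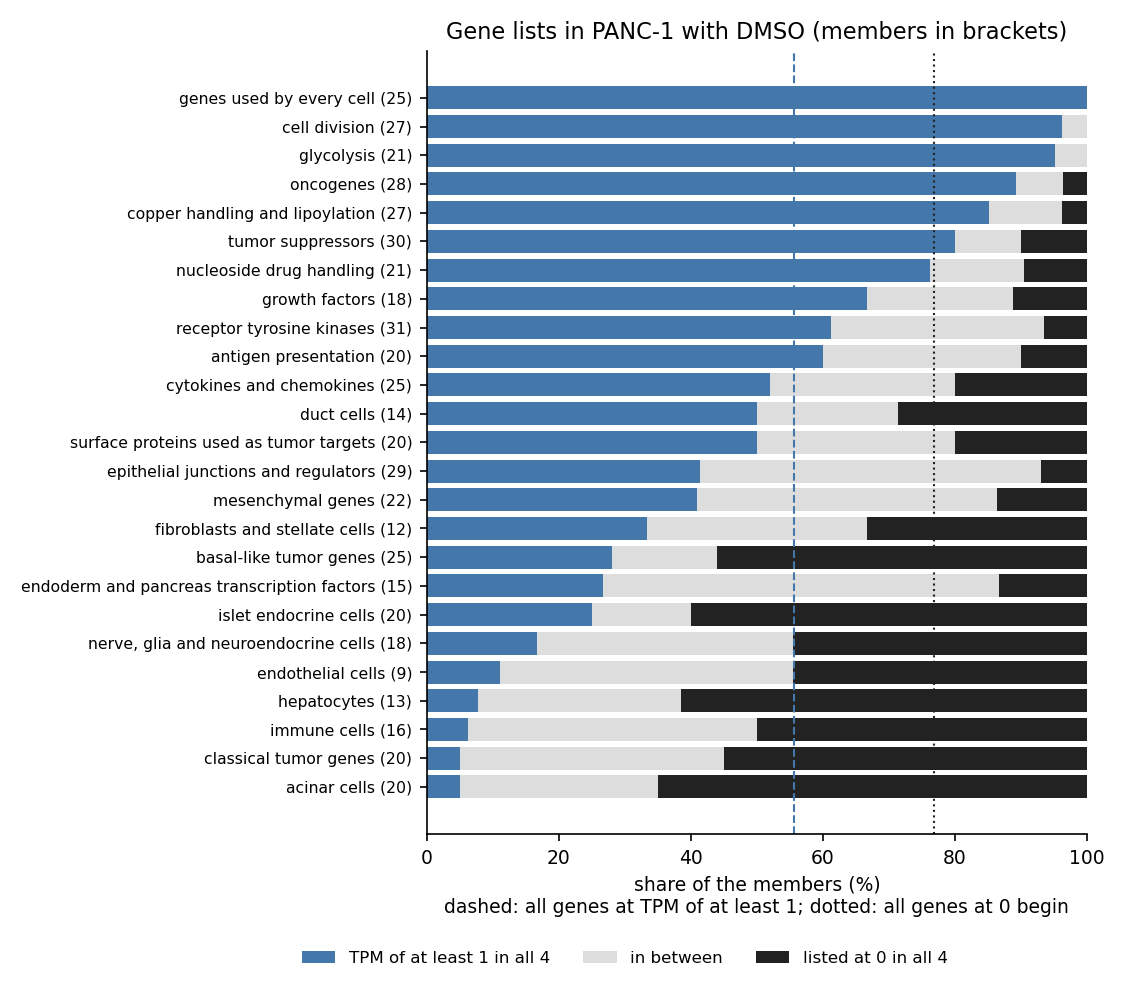
Share of the members of 25 gene lists (%) with a TPM of at least 1 in all 4 DMSO libraries, listed at 0 in all 4 or in between. The dashed line marks the 55.7% of all genes that were expressed, and the dotted line the point from which 23.2% of all genes were at 0.

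Markers of other cell types were few. Shares expressed were 6.25% for immune, 11.1% for endothelial and 7.69% for hepatocyte genes, beside 55.7% of all genes. Of 16 immune genes, 8 were listed at 0, among them PTPRC, the pan-leukocyte CD45, and the list summed to 8.70, 8.46, 8.13 and 5.30 TPM. The 1 expressed was CD8A at 5.22, 4.74, 4.64 and 3.001 TPM, without CD3D and CD3E, which were at 0. Of 9 endothelial genes, 4 were at 0, PECAM1 included, and EMCN at 1.83, 2.61, 2.63 and 2.48 TPM was the one expressed. Of 13 hepatocyte genes, 8 were at 0, and SERPINA1 at 3.96, 4.32, 3.56 and 3.88 TPM was the one expressed.

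Among 12 genes of fibroblasts and stellate cells, 4 were expressed and 4, DCN, LUM, FAP and POSTN, were at 0. The share expressed was 33.3% beside 55.7% of all genes. RGS5, a pericyte gene, was at 166, 319.7, 301 and 258 TPM, with C1 lowest, and COL1A2 at 90.05, 84.3, 81.2 and 62.01 TPM. COL1A1, the partner chain of COL1A2 in type I collagen, was at 1.71, 2.17, 1.66 and 1.95 TPM, so the chains differed widely in every library. Among 18 genes of nerve, glia and neuroendocrine cells, 3 were expressed, a share of 16.7%, and 8 were at 0. The tubulin gene TUBB3 was at 209.9, 168, 171 and 112 TPM and the neuron-specific enolase gene ENO2 at 67.2, 54.7, 74.2 and 29.9 TPM, whereas SNAP25 and STMN2 were at 0.

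In the keratin, collagen, claudin and mucin families, most members were not expressed. Shares expressed were 10.9%, 25%, 16.7% and 13.3% in this order, beside 55.7% of all genes. Of 55 keratins, 6 were expressed and 38 were listed at 0. After KRT8, KRT18, KRT19 and KRT15 came KRT80 at 23.7, 26.8, 29.4 and 15.9 TPM. Of 94 keratin-associated proteins, 1 was expressed, KRTAP5-1 at 1.94, 1.96, 2.34 and 3.07 TPM. Of 44 collagens, 11 were expressed, led by COL6A1 at 156, 165, 150.2 and 108 TPM and COL18A1 at 128, 118, 117 and 61.99 TPM. Of 24 claudins, 4 were expressed, with CLDN15 at 45.6, 37.9, 38.7 and 26.9 TPM after CLDN4. Of 15 mucins, 2 were expressed, MUC1 and MUC6 at 2.04, 2.46, 1.81 and 1.30004 TPM.

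Of 39 HOX genes, 14 were expressed, a share of 35.9% beside 55.7% of all genes, and they differed by cluster. In the HOXB cluster 9 of 10 genes were expressed, in HOXC 4 of 9, in HOXA 1 of 11 and in HOXD 0 of 9. HOXB2 was at 25.1, 25.8, 23.7 and 21.1 TPM and HOXB8 at 20.1, 21.7, 19.6 and 21.9 TPM. HOXB13, a gene of the hindgut and prostate, was at 10.4, 10.5, 11.03 and 5.06 TPM. HOXB1 was the member at 0, and HOXA11 at 4.03, 3.56, 3.03 and 2.13 TPM was the one expressed of its cluster. On both scales HOXB8 was highest and HOXB13 lowest in C4.

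Among 30 genes matched as integrins by name, which include the binding proteins ITGB1BP1 and ITGB3BP, 11 were expressed, led by ITGB1 at 298, 349.8, 333 and 198 TPM and ITGA3 at 141, 148, 138 and 78.5 TPM. Of 19 S100 genes, 9 were expressed, with S100A11 at 1195, 1255, 1292 and 1499.7 TPM and S100A6 at 1259, 901, 883 and 503 TPM. These neighbors in rank moved apart in C4, where S100A11 was highest and S100A6 lowest on both scales. Of 35 serpins, 9 were expressed, led by SERPINA3, an antiprotease of the acute phase, at 1419.6, 1268, 1269 and 953 TPM. Of 23 matrix metalloproteinases, 8 were expressed, led by MMP11 at 48.6, 43.6, 41.8 and 22.4 TPM, and of 10 aldo-keto reductases 5, led by AKR1B1 at 134, 92.5, 114 and 79.8 TPM. The share expressed was 36.7% for integrins, 47.4% for S100 genes and 25.7% for serpins, beside 55.7% of all genes. For metalloproteinases it was 34.8% and for aldo-keto reductases 50%.

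Some families had no member that was expressed by the rule. None of the 391 olfactory receptors, 24 bitter taste receptors, 39 beta-defensins and 50 cancer-testis antigens of the MAGE, GAGE, XAGE and PAGE groups was expressed. Of these, 366 olfactory receptors, 13 bitter taste receptors and all 39 and 50 of the last groups were listed at 0. Over all genes, 55.7% were expressed and 23.2% were listed at 0. The other 11 bitter taste receptors were above 0 in some library. The highest olfactory receptor by median, OR11H7, was at 0, 0.235, 0.274 and 0.142 TPM. The bitter taste receptor TAS2R14, at 1.08, 0.575, 1.11 and 1.66 TPM, fell short in C2 only, and TAS2R5, at 1.66, 2.19, 2.45 and 0.880 TPM, in C4 only.

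Expressed genes were spread unevenly over the chromosomes. Among the autosomes and X, the share expressed was highest on chromosome 16 with 67.2% of 856 genes and on chromosome 17 with 63.6% of 1179. It was lowest on chromosome X with 41.4% of 835 and on chromosome 14 with 46.8% of 817. Chromosome 14 also holds segments of immunoglobulin and T cell receptor genes, and whether these account for its share was not tested. By kind, 11215 of 19569 protein-coding genes were expressed and 11 of 81 long noncoding RNA genes. None of the 79 joining segments of T cell receptor genes was above 0. The longest annotated transcript had a median length of 3799 bases for expressed genes and 2038 bases for genes at 0.

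The spread between the 4 cultures was described by the SD of log2(TPM + 1) per gene. Its median over expressed genes was 0.26, with quartiles of 0.17 and 0.38. Without C4 the median was 0.12, and over nuclear genes rescaled to the same sum, with C4, it was 0.19. In 4 equal groups by abundance, from the lowest to the highest, it was 0.26, 0.27, 0.27 and 0.26 with C4, and 0.15, 0.12, 0.11 and 0.09 without. Across expressed genes, which are not independent replicates, Pearson's r of log2(TPM + 1) was 0.986 to 0.988 between C1, C2 and C3 and 0.970 to 0.975 between C4 and each of them. No pair of libraries shared an identical value at any expressed gene.

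The steadiest gene with a median of at least 100 TPM was HNRNPH1, an RNA-binding protein, at 392, 388, 395 and 401 TPM, with an SD of 0.02. Among the next were CHCHD3, CAPZA1, OXA1L, NUTF2, GLO1, RTL8C, ZMAT2 and MLF2, with an SD of 0.03 each. This order held on the deposited scale only. Over nuclear genes rescaled, C4 was above the other 3 by 0.33 to 0.46 for these genes, and the SDs were 0.17 to 0.23.

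At the other end, 50 expressed genes had an SD over 1. CLDN4 had the largest, 2.35, from its low value in C3. TOMM6, a subunit of the mitochondrial import pore, had an SD of 2.33 with 5.83, 4.76, 4.13 and 146 TPM, so that C4 alone was high. RAB43, a small GTPase, gave 46.7, 42.3, 34.6 and 1.94 TPM, and MLEC, which encodes malectin of the endoplasmic reticulum, 77.1, 79.1, 79.6 and 6.28 TPM, both low in C4 alone. ZBTB38 gave 21.5, 29.5, 27.95 and 1.78 TPM and ZC3H11A 33.7, 28.8, 43.8 and 3.38 TPM, also lowest in C4. ZNF74, at 24.7, 2.63, 5.77 and 2.34 TPM, was high in C1 alone, and MRFAP1, at 46.1, 38.3, 191 and 24.2 TPM, in C3 alone. CASP2, at 7.45, 25.7, 25.98 and 3.53 TPM, fell into a low pair, C1 and C4, and a high pair, C2 and C3. The remaining 6 of the 15 largest were identifiers without a gene name.

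Exons that belong to more than one gene were common in this group. Of 49 annotated genes with an SD over 1, 27 shared exonic bases with another gene of the table, a share of 55.1% beside 32.0% of all expressed genes. On the same strand these shares were 34.7% and 10.1%. TOMM6 lay with 100% of its exonic bases, ZC3H11A with 87.3% and RAB43 with 79.3% in exons of another gene on the same strand. CLDN4, MLEC, ZBTB38, ZNF74, CASP2 and MRFAP1 shared none. Whether the division of reads between such genes set their spread was not tested.

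Genes that were at 0 in some but not all libraries numbered 1971, of which 63 reached a TPM of 1 in another library and 8 reached 10. The 10 with the highest value were mostly read-through transcripts that join a pair of neighboring genes. ENSG00000267952, an identifier without a gene name, had the highest value of all, at 0, 1.05, 0 and 176 TPM. PEDS1-UBE2V1 was at 0, 23.99, 2.79 and 32.1 TPM, RPS10-NUDT3 at 8.49, 0, 16.9 and 4.24 TPM and INO80B-WBP1 at 9.20, 15.8, 0 and 0 TPM. ISY1-RAB43, which overlaps RAB43, was at 0, 0, 8.90 and 11.8 TPM, above 0 in C3 and C4, while RAB43 was low in C4. NEDD8-MDP1 was above 0 only in C2, at 12.1 TPM.

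The threshold fell in a continuous range. Just inside it were CDHR3 at 1.001 TPM in C4, PDGFB at 1.004 TPM in C4 and PLAC9 at 1.004 TPM in C3. Just outside were PLPP3 at 0.997 TPM in C4, ME3 at 0.997 TPM in C3 and AK7 at 0.996 TPM in C1.

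C4 was compared with the mean of C1, C2 and C3 gene by gene, with 1 library on one side and hence no test. The median difference over expressed genes was −0.41 on the log2(TPM + 1) scale, with quartiles of −0.66 and −0.18. C1, C2 and C3 lay 0.15, 0.13 and 0.14 above the mean of their own 3 others. That mean includes C4, so low values in C4 raise these differences by construction. C4 was the lowest library for 8752 expressed genes, a share of 77.6%, and the highest for 693. Rescaled over nuclear genes, the median difference of C4 was −0.06 and those of C1, C2 and C3 −0.03, 0.04 and 0.05. The quartiles of C4 were then −0.31 and 0.19, wider than −0.18 and 0.13 for C1, and C4 was farthest from the median of the 4 for 49.1% of nuclear genes. Rescaling thus moved the median of C4 toward the other libraries and left its quartiles about as far apart.

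The difference of C4 went with the base composition of transcripts. Over nuclear genes rescaled, its median was 0.15 in the group of genes with the lowest GC content, a median GC of 38.2%, then 0.06, −0.04 and −0.19, and −0.29 in the group with the highest, a median of 62.0%. C1 went from −0.13 to 0.10, and C2 and C3 from −0.01 to 0.10 and 0.09. Each of these is a difference from a mean that includes C4. A fall in C4 raises them by construction, so the rises are in part a reflection of C4. In 5 equal groups by transcript length, C4 went from −0.01 for the shortest to −0.11 for the longest and C3 from −0.03 to 0.13. Whether library preparation or the cells themselves gave these trends was not tested.

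**Figure D5:**
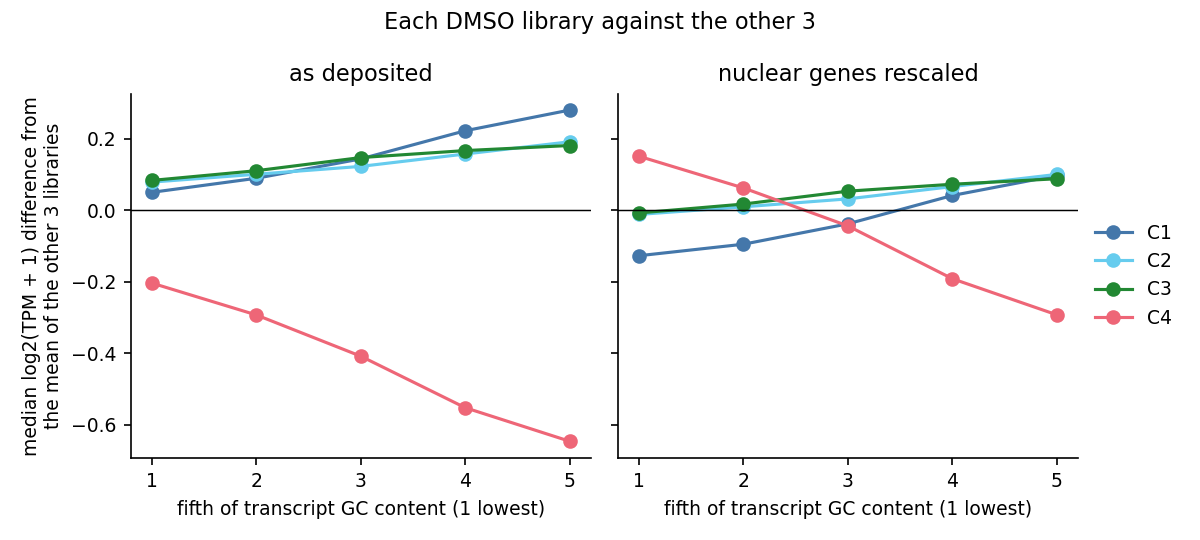
Median difference of log2(TPM + 1) of each DMSO library from the mean of the other 3, over 5 equal groups of expressed nuclear genes by GC content of the longest transcript, from the lowest to the highest, as deposited (left) and after rescaling nuclear genes to a common sum (right). C4 falls from −0.20 to −0.65 on the left and from 0.15 to −0.29 on the right.

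Only expressed genes were ranked by their difference in C4. Highest in C4 relative to the other libraries were TOMM6, with a difference of 4.65, and an identifier without a gene name with 2.20. They were followed by the histone deacetylase HDAC2, at 20.3, 26.1, 24.8 and 86.2 TPM, ZBED6 at 6.86, 6.48, 3.59 and 20.6 TPM and dystroglycan, encoded by DAG1, at 13.9, 19.7, 19.9 and 58.03 TPM. The purine synthesis enzyme PAICS was at 33.4, 31.1, 58.9 and 120.4 TPM and the selenoprotein SELENOF at 36.6, 11.7, 69.1 and 85.9 TPM, with C2 the low library of the latter. RPL17-C18orf32, MT-ATP8 and TCEAL4 completed the 10. The lowest were RAB43 with −3.83, MLEC with −3.45 and ZBTB38 with −3.28. Among the other 7 were ZC3H11A, MAVS, an adaptor of antiviral signaling, at 49.2, 49.3, 53.5 and 8.19 TPM, and ZNFX1, an RNA helicase, at 33.5, 31.4, 34.2 and 5.79 TPM, besides 4 identifiers without a name. Among these 4, ENSG00000124593 spans TOMM6 on the same strand and was at 34.4, 34.4, 31.8 and 4.99999 TPM. ZBED6 and ZC3H11A start at the same base and on the same strand of chromosome 1. ZBED6 had 95.7% and ZC3H11A 87.3% of its exonic bases in exons of another gene on that strand. Whether the opposite differences in C4 within each pair are independent was not tested.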

How the data were processed

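Messenger RNA of PANC-1 cells was sequenced in 4 cultures after 24 h in DMSO. The authors deposited a table of TPM for 20263 genes, in which each library sums to about 1000000. The study's methods name CLC Genomics Workbench for extracting and normalizing read counts, with HISAT2 and StringTie among further tools. They do not name TPM in that step, and whether strand was used is not given in the sources used here. The labels name both a human (hg38) and a mouse genome build, and the gene identifiers are human. The methods speak of 4 biological replicates and, elsewhere, of triplicates. Columns headed C were read as the DMSO group and not tied to a single sample, and the 4 columns headed H were not used. TPM keep no depth, so the counting error of a value is unknown.

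Of the identifiers, 20148 were matched in GENCODE release 44 (hg38) and 115 were not. A gene counted as expressed where all 4 libraries had a TPM of 1 or more. The spread was the SD of log2(TPM + 1), with a pseudocount of 1, which understates differences of low genes. Nuclear values were rescaled to 1000000 after the 13 mitochondrially encoded genes were removed. Exon overlap was computed with bedtools 2.31.1, and length and GC content on the longest transcript. Promoters of 300 bases came from RefSeq on GRCh38.p14, the first start of each gene, and none is printed for KRT8, KRT18 or KRT19. Python 3.11.15, numpy 2.4.6, pandas 2.3.3 and matplotlib 3.10.9 were used, and the calculations were checked on simulated data.

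No groups were compared and no p-value was computed. Libraries that stood apart were marked by Dixon's critical value. The 25 lists, 19 families and the rules for naming genes were chosen with earlier results of these data known. Named were the markers, the 20 most abundant nuclear genes, up to 8 members of each list and 5 of each family by median TPM, list members at 0, the oncogenes and suppressors described, the 15 largest and 10 smallest spreads, the 10 extremes of C4 on each side, genes at 0 in some libraries and genes at the threshold. Well-known list members with low values, such as CDH1, FN1, PDX1 and CD274, genes beside the run on chromosome 9, and TAS2R5, TAS2R14 and HOXB13 were added after their values were seen. Some genes that these rules name are not reported here. Other thresholds, scalings, pseudocounts and each library left out were tried as alternatives.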

Additional observations from a re-analysis of the deposited data

Results flagged for a closer look

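A library was taken as standing apart where its gap to the nearest of the other 3 took a part of the range of all 4 above Dixon's 95% critical value, which chance alone passes in about 1 in 20 groups. C4 stood apart in 5 of 11 measures of whole libraries. The other 6 were the genes at 0, the shares of the 10 most abundant, the mitochondrially encoded and the ribosomal protein genes, and, over nuclear genes, the ribosomal share and the median difference. C4 had the fewest genes with a TPM of at least 1, 11445, and the lowest median TPM of expressed genes, 15.4. The 100 and 1000 most abundant genes took the largest shares there, 57.1% and 77.9%, and its median difference from the other libraries was −0.41 on the log2(TPM + 1) scale.

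Of 244 named genes that were expressed, 53 had a library apart on the log2(TPM + 1) scale, a share of 21.7% beside 15.6% of all 11279 expressed genes, where C4 accounted for 1592 of 1758. The named genes include those picked for the largest spread and for the extremes of C4. The higher share among them is therefore no result about the named genes. Over nuclear genes rescaled, the share was 8.51%, with C4 in 662 of 959. The genes below are given with the TPM in the library that stood apart.

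C4 was the low library for 44 named genes on the deposited scale, where its larger mitochondrial share lowers all nuclear genes. Rescaled over nuclear genes, C4 was still lowest for 38 of the 44, of which 18 still stood apart, and highest for 4, KRT18, RPL13A, TYMS and ATOX1. Above 100 TPM these were RPL13A at 4317, RPS2 at 3392, TPI1 at 1581, KRT8 at 514, PGAM1 at 419, KRT18 at 342, GPI at 309, TYMS at 178, LOXL2 at 173, ATOX1 at 125 and MCM2 at 105, a set with ribosomal, glycolytic and keratin genes. Between 50 and 100 TPM they were ITGA3 at 78.5, SMARCA4 at 73.97, AKT1 at 73.9, EPHB4 at 70.8, DLST at 67.6, CSF1 at 63.97, COL18A1 at 61.99, VEGFB at 60.2, COL6A2 at 55.6, ERBB2 at 54.7, JUP at 53.2 and EPHA2 at 52.9, among them receptors and collagens. Between 20 and 50 TPM they were COL5A2 at 49.9, ITGB1BP1 at 46.9, BAP1 at 37.7, DCTD at 34.7, AKR1A1 at 31.7, LIF at 28.7, ITGB5 at 25.9 and AXL at 20.8. Under 20 TPM they were EHF at 16.2, IL4R at 15.03, MMP15 at 8.58, FGFR3 at 8.56, MAVS at 8.19, SMAD4 at 8.04, CDH12 at 7.24, MLEC at 6.28, ZNFX1 at 5.79, ENSG00000267059 at 5.49, ENSG00000124593 at 4.99999, RAB43 at 1.94 and ZBTB38 at 1.78.

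C4 was the high library for MT-ND3 at 8319, TOMM6 at 146 and MMP19 at 4.82. C1 was low for HHEX at 18.8, IL32 at 5.05 and EMCN at 1.83 and high for ENSG00000267228 at 21.1. C2 was high for MYC at 34.7 and for CHCHD3 at 191, a small gap from 184, 184 and 183 in C1, C3 and C4. Both flags held on the deposited scale. Rescaled over nuclear genes, MYC was highest in C4, at 46.7 beside 43.9 in C2. CHCHD3 in C4 then lay 0.37 above the mean of the other libraries on the log2(TPM + 1) scale. C3 stood apart for none of the 244 named genes, and CLDN4, far lower there, did not pass this limit. Why any of these values stood apart was not tested.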

How the results depend on the processing

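No paired analysis was possible because columns of a single group were used and no result comes from a test. The median difference of C4, −0.41, changed sign to 0.0123 with median-ratio scaling and to 0.0111 with quantile normalization, both of which fix the level of a library by construction, and was −0.0576 with mitochondrially encoded genes removed. That removal also moved the mean share of TPM in the 10 most abundant genes from 23.8% to 8.92%, in the 100 from 46.4% to 30.8%, in the 1000 from 71.8% to 62.8% and in ribosomal protein genes from 12.3% to 16.3%, and raised the mean TPM of the 6 marker and driver genes KRT8, KRT18, KRT19, VIM, SMAD4 and MYC. When single libraries were left out, the median SD lay between 0.12, without C4, and 0.29, and the 50 genes with an SD over 1 became 32, without C4, to 94. They were 22 among genes that share no exonic base with another gene, a setting added after seeing the data. The number of expressed genes lay between 11312 and 11582 with a library left out, and that of genes at 0 between 4889 and 4949. Of the 44 counts of list and family members, 3 moved at a threshold of 0.5, 13 at a threshold of 5 and 3 with a library left out. The other alternatives moved no other result beyond the spread between libraries or 1.5 times a count. The unknown depth limits what a listed 0 says.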
